A study of Mus musculus with 2 samples.

Results

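The mitosis and spindle genes are 43 genes of the late cell cycle, chosen by symbol from the gene list of the deposited matrices. All 43 were among the 27998 listed genes, each under 1 row. Cultured lung fibroblasts of wild-type C57BL/6 mice, an inbred strain, were studied with a single-cell droplet kit that reads transcript 3′ ends and marks each molecule with a unique molecular identifier (UMI). There were 2 libraries, 1 control and 1 stimulated, from passage 3 cultures of lung cell suspensions treated for 14 days. For stimulation the protocol names 10 μM rosiglitazone, an agonist of the nuclear receptor PPARG, 1 μM SB4315442 and 4 μM rhBMP4, alone or together, and which of these went into the stimulated library is not stated. Control cells received vehicle in the same medium and came from the same lung. The medium held 10% fetal bovine serum, or 1% of the supplement ITS+3 to bring on a state like that of lipofibroblasts, the lipid-storing fibroblasts of the alveolar wall. With 1 library per group no comparison between the libraries has a replicate check, and no test was run. All intervals below are 95% intervals that cover counting error only. Those of the folds treat UMIs as independent, although UMIs of 1 cell are not.

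After filtering, the control library held 4703 cells with a median of 19634 UMIs and the stimulated library 7468 cells with a median of 15379.5 UMIs, and 53 barcodes occurred in both. Fibroblast markers matched the label: 12 of 12 in the control and 11 of 12 in the stimulated library reached 5 CPM, where CPM is a gene's UMIs per 1000000 UMIs of the cells summed. Epithelial markers summed to 0.248 CPM and 0.213 CPM, with 5 and 4 of 9 at 0. Mesothelial markers summed to 30.5 CPM and 29.4 CPM, with 3 and 2 of 10 at 5 CPM or more. Endothelial markers summed to 47.4 CPM and 43.5 CPM, with 2 of 9 at 5 CPM or more in each library. Macrophage markers summed to 746 CPM in control cells and 14.2 CPM in stimulated cells. In the control library 135 cells, 2.87% of it, had 50 or more UMIs of the 12 macrophage markers, as did 0 of 7468 stimulated cells, which allows a share of up to 0.0402%. In these 135 cells the 43 genes summed to 1230 CPM, against 1083 CPM in the other control cells.

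A cell enters mitosis when CDK1 bound to cyclin B becomes active, and leaves it when the anaphase-promoting complex (APC/C) marks cyclin B and securin for destruction. Between these steps the spindle, built of microtubules, motors and cross-linkers, attaches to kinetochores at the centromeres, and checkpoint kinases hold the APC/C back until every chromosome is attached. A contractile ring then divides the cell. Fibroblasts of the adult lung divide rarely, while serum in culture drives them into cycle. Transcripts of many mitotic genes build up in G2, and their promoters are known for 2 short elements: the cell cycle homology region, here searched as TTTGAA, and the CCAAT box, bound by NF-Y.

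Promoters are shown for the 4 members with the largest folds between the libraries that have an entry (Hmgb2, Bub1b, Knstrn and Ccnb2), for Ect2 with the smallest, and for Cdk1 and Top2a because they carry both elements. Each sequence is the 150 bases before the annotated start in RefSeq (GRCm38.p6), 5′ to 3′ on the strand of the gene, and the capitals mark TTTGAA and CCAAT or their reverse complements TTCAAA and ATTGG. Hmgb2 lies at chr8:57511693-57511842 (plus strand), Bub1b at chr2:118598061-118598210 (plus strand), Knstrn at chr2:118813853-118814002 (plus strand), Ccnb2 at chr9:70421555-70421704 (minus strand), Top2a at chr11:99024190-99024339 (minus strand), Cdk1 at chr10:69352913-69353062 (minus strand) and Ect2 at chr3:27153879-27154028 (minus strand).
Hmgb2: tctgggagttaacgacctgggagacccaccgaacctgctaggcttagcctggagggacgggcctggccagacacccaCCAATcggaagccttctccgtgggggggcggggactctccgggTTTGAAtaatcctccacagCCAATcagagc
Bub1b: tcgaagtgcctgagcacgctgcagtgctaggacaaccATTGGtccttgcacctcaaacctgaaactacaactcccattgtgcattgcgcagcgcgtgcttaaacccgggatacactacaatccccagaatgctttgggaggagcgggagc
Knstrn: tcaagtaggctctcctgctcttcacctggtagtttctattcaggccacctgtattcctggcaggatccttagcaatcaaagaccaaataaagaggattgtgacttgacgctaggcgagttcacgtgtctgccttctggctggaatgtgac
Ccnb2: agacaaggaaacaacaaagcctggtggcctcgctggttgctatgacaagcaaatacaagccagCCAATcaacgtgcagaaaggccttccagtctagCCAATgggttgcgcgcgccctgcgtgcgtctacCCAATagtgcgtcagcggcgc
Top2a: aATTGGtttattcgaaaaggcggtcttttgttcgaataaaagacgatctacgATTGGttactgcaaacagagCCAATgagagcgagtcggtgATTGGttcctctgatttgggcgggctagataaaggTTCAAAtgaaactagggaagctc
Cdk1: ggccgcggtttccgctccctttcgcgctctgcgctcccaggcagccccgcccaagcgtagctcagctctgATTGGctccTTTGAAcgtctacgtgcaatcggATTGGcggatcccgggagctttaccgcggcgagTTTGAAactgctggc
Ect2: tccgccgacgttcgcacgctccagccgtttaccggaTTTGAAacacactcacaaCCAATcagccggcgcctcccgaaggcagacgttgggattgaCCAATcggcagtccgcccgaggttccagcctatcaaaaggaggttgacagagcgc

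Of the 43 members 37 had a promoter entry, 1 of them, Sgol1, under another symbol. The entries of Ccna2, Aurkb, Pbk, Tpx2, Kif20a and Fam64a are not used here. Over the 250 bases before the start and on both strands, CCAAT was found in 26 of 37 member promoters (70.3%), and in 34.5% of the first promoters of 27025 genes. A second CCAAT was found in 18 member promoters (48.6%), against 10.5% of all. TTTGAA was found in 12 of 37 (32.4%), against 16.3% of all, and both elements together in 11 (29.7%), against 5.73%. Matches may share bases, and overlapping ones were each counted. TTTCCCGC and TTTGGCGC, forms of the E2F element, were in none of the 37 and in 0.929% and 0.437% of all promoters. Positions below count the bases between the end of an element and the start. In the printed stretch of Hmgb2, CCAAT ends 68 and 6 bases before the start and TTTGAA 24 bases before it. The 3 CCAAT of Ccnb2 end 82, 49 and 16 bases before the start. The TTTGAA of Ccnb2 ends 161 bases before the start, outside the printed stretch. Bub1b holds 1 CCAAT, read on the other strand and ending 108 bases before the start, and no TTTGAA. Knstrn holds neither element. Matches describe these letters alone. Of the promoters printed, those of Hmgb2, Ccnb2, Top2a, Cdk1 and Ect2 carry both elements within 250 bases, while those of Bub1b and Knstrn do not. A relation between the elements and the folds below was not tested.

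Over all kept cells the 43 genes summed to 1085 CPM (1079 to 1092) in the control and 1673 CPM (1666 to 1681) in the stimulated library, a ratio of 1.54 (1.53 to 1.55). Of the 39 members whose mean level reached 5 CPM, 20 were at least 1.5-fold higher in the stimulated library and 0 were 1.5-fold lower. Among all 8786 genes compared in this way, 7.74% were higher and 12% were lower. All 39 had a fold above 1 with an interval above 1, from 1.14 for Ect2 to 2.12 for Aurkb, with a median log2 fold of 0.59 against -0.06 over all genes. The remaining 4 (Bub1, Ttk, Ndc80 and Kif20b) had a mean under 5 CPM. Without the macrophage marker cells the count of higher members was 20 of 39 as well. The direction held for each of the 43 members in all 11 settings tried. These count the main setting and level filters of 1 and 20 CPM, which leave every fold as it is. They also count rescalings of the library totals, which move all folds by a shared factor. Under TMM scaling 30 of 40 were higher, where 10.3% of 8872 genes were higher and 9.42% lower. That scaling moved the median of all genes from -0.06 to 0.04. In bulk sums of this kind more cells with a transcript and more transcript per cell cannot be told apart.

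**Figure D1:**
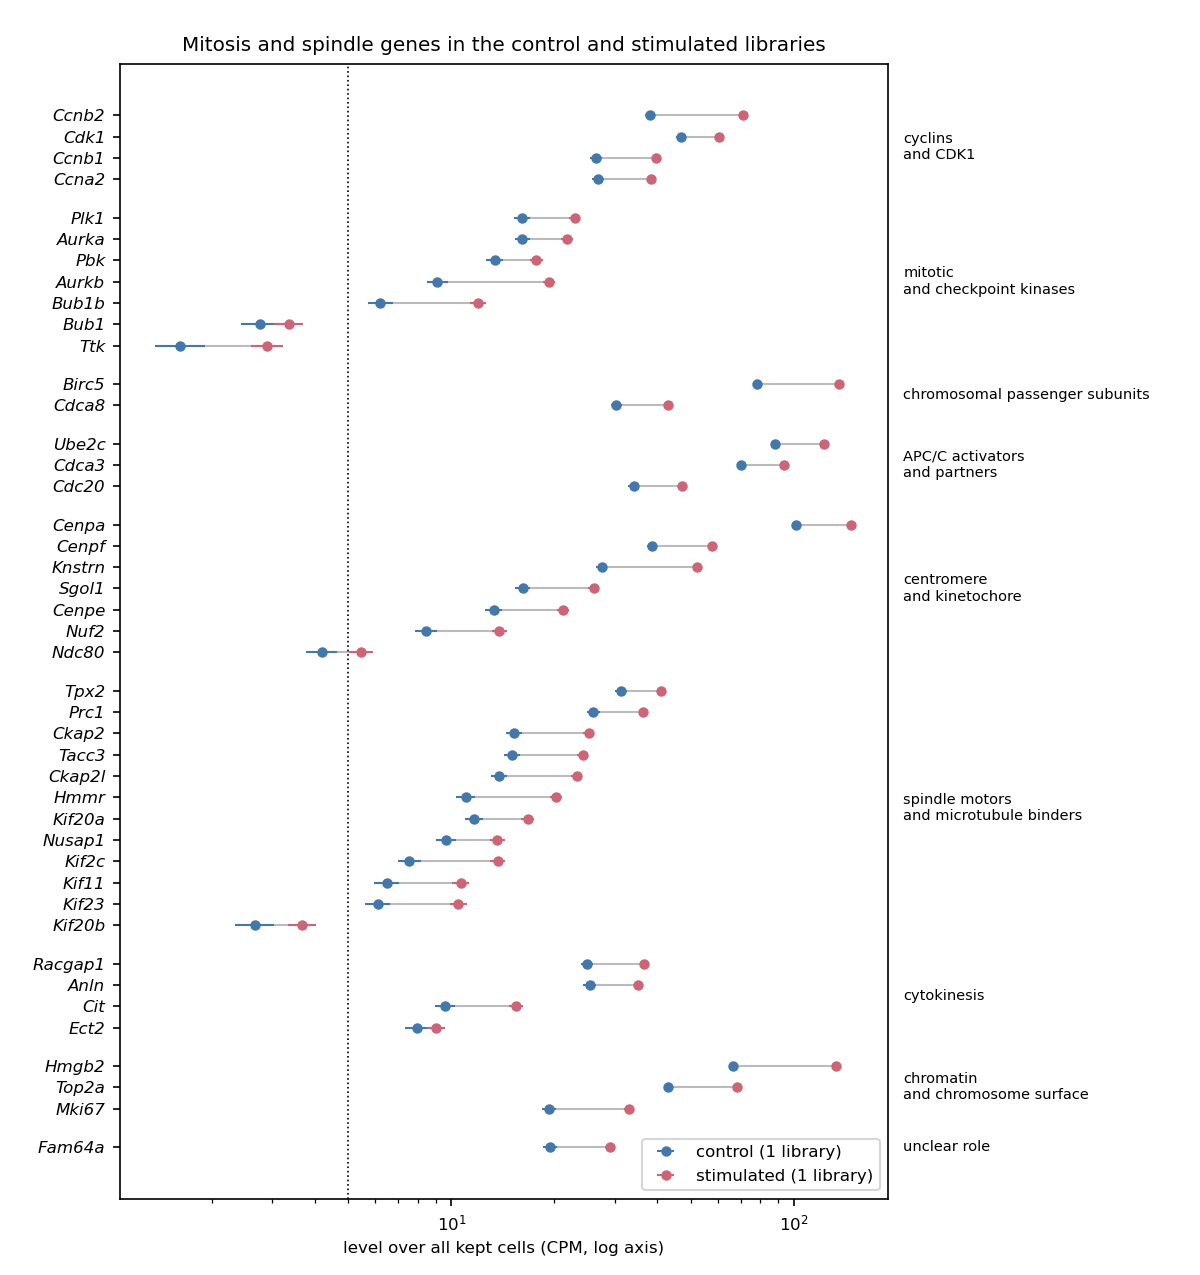
Level of each of the 43 genes over all kept cells in CPM (log axis), control in blue and stimulated in red, grouped by role, with bars for exact Poisson 95% intervals and a dotted line at 5 CPM. Every red point lies to the right of its blue point, from Ect2 (7.91 and 9.04 CPM) to Aurkb (9.10 and 19.3 CPM).

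Among the cyclins and their kinase, 2 of 4 were 1.5-fold higher. Ccnb2, which encodes cyclin B2, was at 38.0 CPM in control cells and 71.2 CPM in stimulated cells, 1.87-fold higher (1.80 to 1.95). Ccnb1, encoding cyclin B1, was at 26.4 and 39.7 CPM, at the threshold with 1.5-fold (1.43 to 1.58). Both B cyclins were thus higher, by different amounts, with intervals that do not overlap. Cdk1, the kinase itself, was at 46.8 and 60.5 CPM, 1.29-fold higher (1.24 to 1.34), and Ccna2, cyclin A2, which acts from S phase into G2, stood 1.43-fold higher (1.36 to 1.51).

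Aurkb, the Aurora B kinase of the chromosomal passenger complex, had the largest fold of the 39, from 9.10 CPM to 19.3 CPM, 2.12-fold (1.96 to 2.30). Bub1b, the checkpoint protein BUBR1, followed the same direction with 6.20 and 11.9 CPM, 1.93-fold (1.74 to 2.13). These were the only 2 past 1.5-fold of the 5 measured genes listed as mitotic and checkpoint kinases. That list leaves out Cdk1 and Cit, kinases described under other roles. Plk1, a kinase of mitotic entry and spindle assembly, was at 16.1 and 22.9 CPM, 1.42-fold higher (1.33 to 1.52). Aurka, the Aurora A kinase of the spindle poles, was at 16.1 and 21.8 CPM, 1.35-fold higher (1.27 to 1.44). The related Aurora kinases thus lay at different folds, with intervals that do not overlap. Pbk, a mitotic kinase, was at 13.4 and 17.7 CPM, 1.32-fold higher (1.23 to 1.42). Of the checkpoint kinases under 5 CPM, Bub1 was at 2.77 and 3.34 CPM, a fold of 1.21 (1.03 to 1.42), and Ttk at 1.61 and 2.90 CPM, a fold of 1.80 (1.47 to 2.20).

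The other chromosomal passenger subunits were split. Birc5, which encodes survivin, was at 77.9 CPM and 135 CPM, 1.74-fold higher (1.69 to 1.79). Cdca8, which encodes borealin, was at 30.3 and 43.01 CPM, 1.42-fold higher (1.35 to 1.49). Survivin and borealin bind Aurora B in 1 complex, and of its genes here only Cdca8 lay under 1.5-fold. Incenp, the scaffold of that complex and not a member, was named after its values were seen and was at 13.7 and 21.1 CPM, 1.54-fold higher (1.44 to 1.65).

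None of the 3 measured APC/C activators and partners reached 1.5-fold. Ube2c, the ubiquitin-conjugating enzyme of the APC/C, was at 87.9 and 123 CPM, 1.39-fold higher (1.36 to 1.43). Cdc20, its activator in mitosis and the protein held by the checkpoint, was at 34.1 and 47.2 CPM, 1.38-fold higher (1.32 to 1.45). Cdca3, a trigger of mitotic entry that the APC/C degrades, was at 70.1 and 93.6 CPM, 1.34-fold higher (1.29 to 1.38). The 3 folds lay close together, from 1.34 to 1.39, all below the median member.

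Of the 6 measured centromere and kinetochore genes 4 were higher: Knstrn, Nuf2, Sgol1 and Cenpe. Knstrn, a spindle protein of the kinetochore, was at 27.5 CPM in control cells and 52.3 CPM in stimulated cells, 1.90-fold higher (1.82 to 2.0). Cenpa, the histone H3 variant that marks centromeres, was at 101 and 147 CPM, 1.45-fold higher (1.41 to 1.49). Cenpf, a kinetochore protein that binds microtubules, was at 38.7 and 57.9 CPM and lay just under the threshold, as did Fam64a, whose role is less clear, with 19.5 and 29.1 CPM. Cenpe, a kinesin of the kinetochore, was at 13.3 and 21.1 CPM, and Sgol1, which guards cohesion at the centromere, at 16.1 and 26.1 CPM. Nuf2 and Ndc80 encode partners in 1 microtubule-binding complex. Nuf2 was 1.64-fold higher (1.5 to 1.79), and Ndc80, at 4.18 and 5.45 CPM, had a fold of 1.31 (1.15 to 1.49). These intervals also do not overlap, but Ndc80 was under the level filter. Among the settings tried its log2 fold reached 0.66, and the lowest for Nuf2 was 0.70.

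The spindle motors and microtubule binders held 7 of 11 measured members that were higher, from Tacc3 at 1.60-fold (1.5 to 1.71) to Hmmr, a hyaluronan-binding spindle protein, at 1.84-fold (1.71 to 1.98). The kinesins Kif2c, Kif23 and Kif11 were among them, while the kinesin Kif20b, at 2.66 and 3.67 CPM, was under the level filter. Tpx2, which activates Aurora A on the spindle, was at 31.3 and 41.0 CPM, 1.31-fold higher (1.25 to 1.37). Prc1, which cross-links microtubules of the midzone, was at 26.0 and 36.4 CPM, 1.40-fold higher (1.33 to 1.47). Ckap2, a microtubule stabiliser, was at 15.2 and 25.2 CPM, 1.65-fold higher (1.55 to 1.76). Nusap1 and Kif20a, with Tpx2 and Prc1, made up the 4 under the threshold, at 1.31-fold to 1.44-fold.

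Of the 4 genes of cytokinesis 1 was higher. Cit, the citron kinase of the midbody, was at 9.61 and 15.4 CPM, 1.60-fold higher (1.48 to 1.74). Ect2, the exchange factor that switches on RhoA at the division plane, was at 7.91 and 9.04 CPM, 1.14-fold higher (1.04 to 1.26), the smallest fold of the 39. Its partner Racgap1 was at 24.9 and 36.5 CPM, 1.47-fold higher (1.39 to 1.55), and Anln, the ring scaffold anillin, at 25.3 and 35.1 CPM, 1.39-fold higher (1.32 to 1.46). Ect2 and Racgap1, whose proteins act as a pair, therefore differed in fold.

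All 3 genes of chromatin and the chromosome surface were higher. Hmgb2, which encodes a DNA-bending high-mobility-group protein, was at 66.5 CPM in control cells and 133 CPM in stimulated cells, 2.0-fold higher (1.94 to 2.06). Mki67, which encodes the chromosome coat protein Ki-67, was at 19.3 and 32.9 CPM, 1.71-fold higher (1.61 to 1.81). Top2a, the topoisomerase that untangles sister chromatids, was at 43.02 and 68.3 CPM, 1.59-fold higher (1.53 to 1.65). These are also genes in common use as labels of cycling cells.

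To count cells at 1 depth, each cell was thinned to 5000 UMIs, which left out 626 control and 760 stimulated cells. Of the rest, 1108 of 4077 control cells (27.2%, exact binomial 25.8 to 28.6) and 2965 of 6708 stimulated cells (44.2%, 43.01 to 45.4) held 5 or more UMIs of the set, a ratio of 1.63 (1.54 to 1.72). In these cells the mean was 15.9 and 15.5 UMIs of the set and the median 13 and 14 UMIs. The share was therefore larger in the stimulated library. The means are over cells that passed the threshold, so they do not tell the number of cells from the level within them. Without thinning, 2019 of 4703 control cells (42.9%, 41.5 to 44.4) and 5047 of 7468 stimulated cells (67.6%, 66.5 to 68.6) passed, although control cells were deeper. They held 95.1% and 97.2% of all UMIs of the set.

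The libraries also differed at the lower end. Cells without a UMI of the set made up 33.1% of the control and 13.7% of the stimulated library after thinning, and cells with 3 or 4 made up 6.57% and 12.7%. From 10 to 19 UMIs the shares were 9.86% and 18.9%, and from 20 to 49 they were 8.09% and 12.4%. At 50 or more there were 8 control and 5 stimulated cells, so cells this rich in the set were few in both. Within 1 UMI of the threshold lay 266 control and 688 stimulated cells, and with a threshold of 20 UMIs the shares were 8.29% and 12.5%. Among macrophage marker cells of the control library 40 of 126 passed (31.7%, 23.7 to 40.6), against 27.0% of the other control cells, at median depths of the counted cells before thinning of 11130.5 and 21061 UMIs. Without them the ratio of shares was 1.64.

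**Figure D2:**
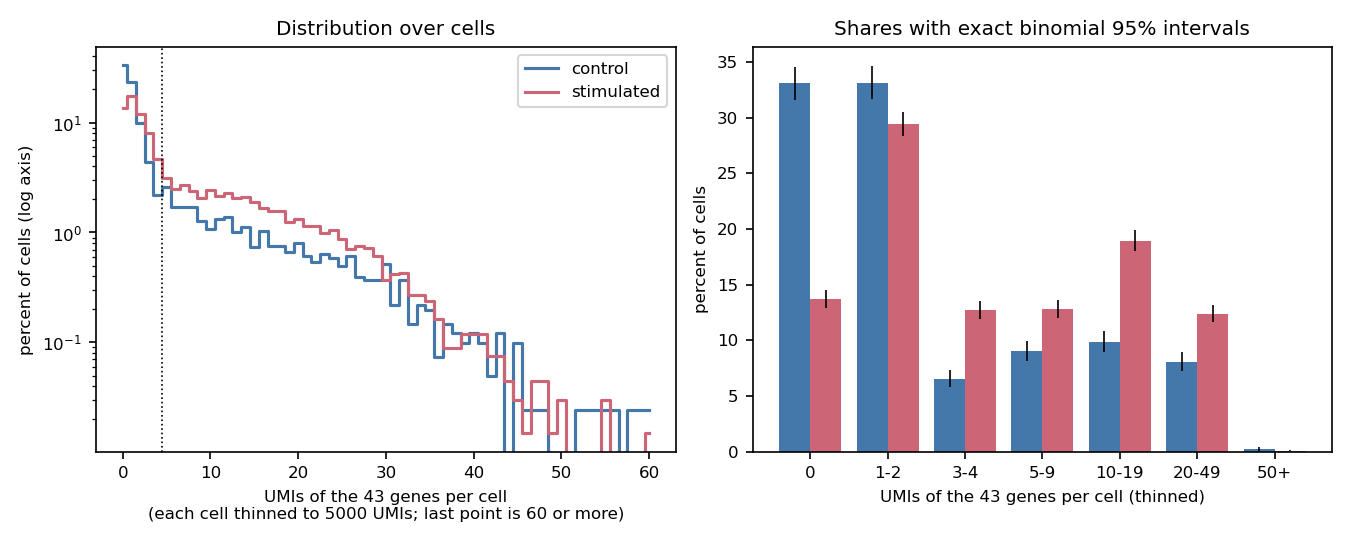
Left, percent of cells (log axis) by the number of UMIs of the 43 genes per cell after thinning to 5000 UMIs, control in blue and stimulated in red, with a dotted line below 5 UMIs. Right, the same in bins with exact binomial 95% intervals, where cells at 0 make up 33.1% of the control and 13.7% of the stimulated library and cells at 10 to 19 9.86% and 18.9%.

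No cell type in these cultures is known to lack these genes, so free RNA could only be gauged within the cells. After thinning, a member was seen in 0.809% (Ttk) to 23.0% (Cenpa) of control cells and in 1.27% (Ttk) to 37.0% (Birc5) of stimulated cells. In cells with no UMI of any other member the median share over the 43 was 0.954% in the control library and 1.92% in the stimulated one, and the highest were 5.33% for Cdk1 and 11.4% for Hmgb2. Outside the cells with 5 or more UMIs, counted without thinning, Hmgb2 was again the highest, at 9.54 CPM in control and 19.2 CPM in stimulated cells. At least 5 CPM was reached there by 8 members in the control library and 16 in the stimulated one. The part of free RNA in these low levels was not tested.

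Cells with 5 or more UMIs of the set, counted without thinning, were chosen by UMIs of these same genes, so the members' levels in them are partly fixed by the choice and are given as a description. Their median depths were 22757 UMIs for the control and 16864 UMIs for the stimulated library, so the threshold also stands for different levels relative to depth. Of 40 measured members 1, Aurkb, was 1.5-fold higher in the stimulated library and 0 were lower, where 6.37% of 8816 genes were higher and 10.8% were lower. Aurkb was at 16.4 CPM and 24.7 CPM in these cells, a fold of 1.5 (1.38 to 1.63), and Hmgb2 at 118 and 169 CPM, a fold of 1.44 (1.39 to 1.48). Bub1b, Knstrn and Ccnb2 followed with folds of 1.38, 1.35 and 1.32. At the other end Ect2 was at 14.2 and 11.6 CPM, a fold of 0.81 (0.74 to 0.90). Bub1, with a mean of 4.71 CPM and so not among the 40, was at 5.12 and 4.31 CPM, a fold of 0.84 (0.71 to 0.99). Ndc80, Pbk and Cdca3 had folds of 0.91, 0.92 and 0.94. Plk1 stood at 29.5 CPM in both, and 29 of the 40 folds were above 1. The median log2 fold was 0.11, yet it was -0.07 when the 5 UMIs were counted after thinning and -0.17 for cells with 20 or more after thinning, so no direction is given for the group.

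**Figure D3:**
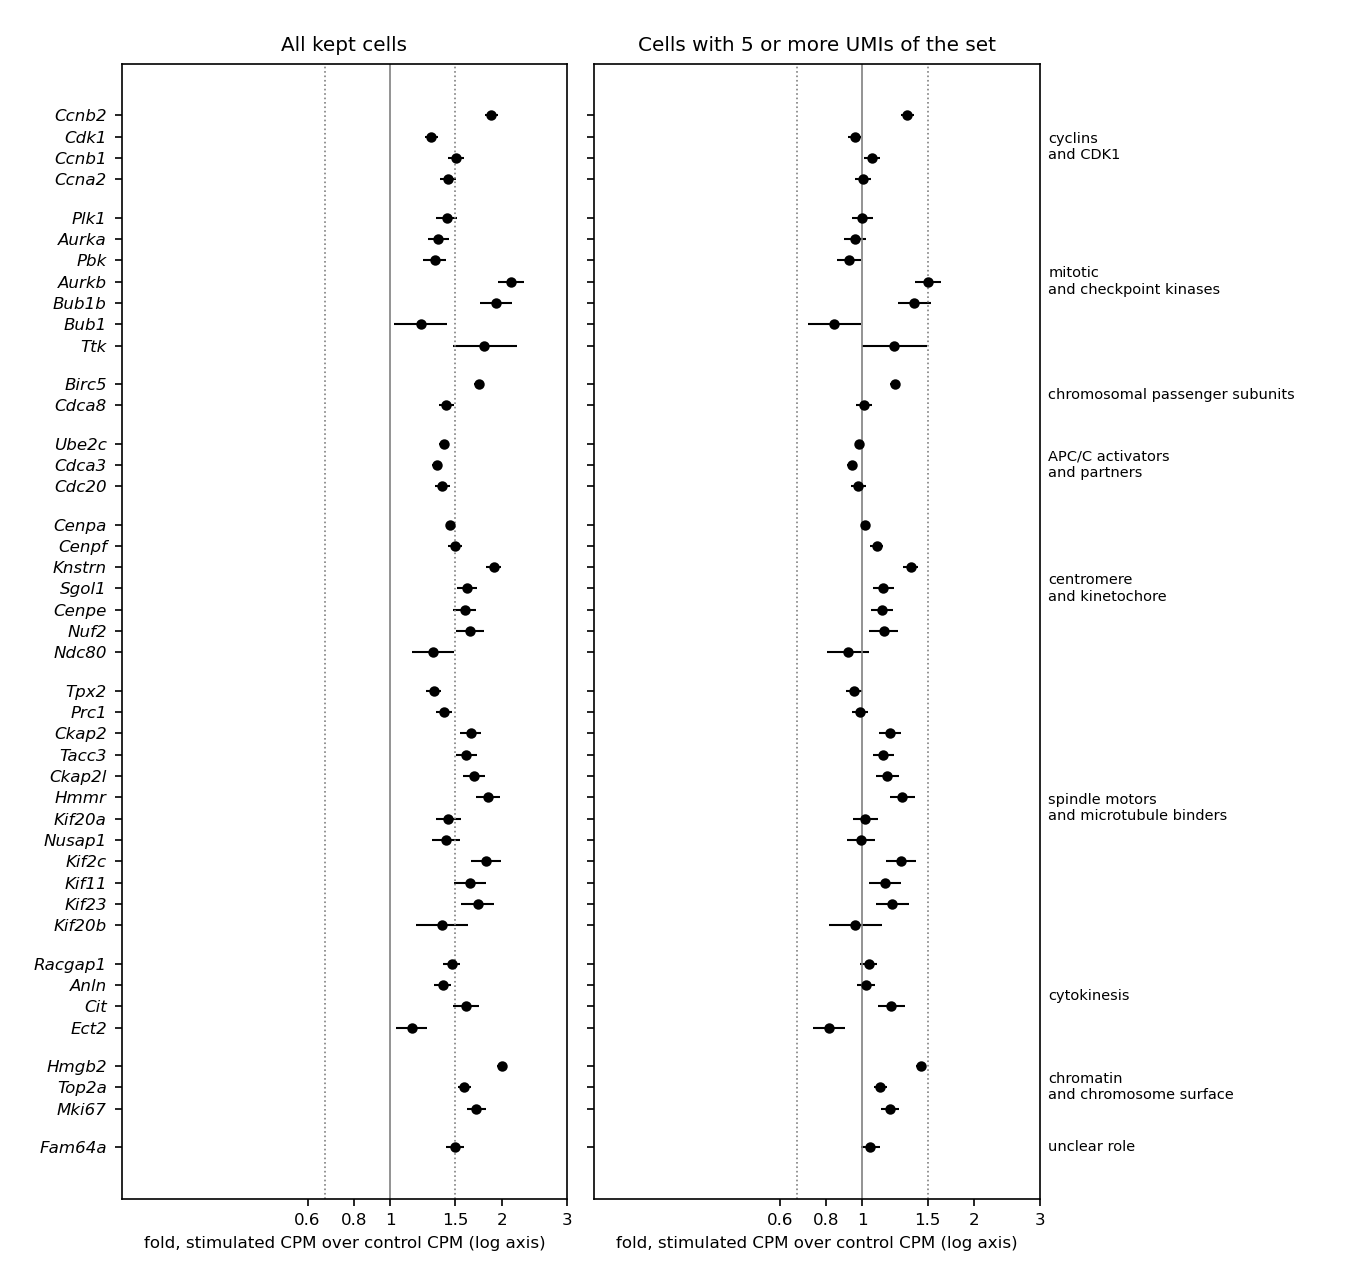
Fold of stimulated over control CPM for each of the 43 genes (log axis, bars for exact conditional-Poisson 95% intervals), over all kept cells on the left and in cells with 5 or more UMIs of the set on the right, with dotted lines at 1.5-fold either way. On the left all points lie above 1, from 1.14 to 2.12, and on the right they spread to both sides of 1, from 0.81 to 1.5.

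The mix of transcripts within the set was compared as each member's share of all UMIs of the set, which does not depend on the total of the set. Over all kept cells Hmgb2 made up 6.12% of the set in the control library and 7.94% in the stimulated one, Birc5 7.18% and 8.09%, and Aurkb 0.838% and 1.15%. Cenpa made up 9.33% and 8.78%, Ube2c 8.10% and 7.32%, and Cdk1 4.31% and 3.62%. The ratio of shares had an interval above 1 for 12 members and below 1 for 17, with a range from 0.74 for Ect2 to 1.38 for Aurkb. In cells with 5 or more UMIs the numbers were 11 and 17. Shares add up to the whole set, so larger shares of some members lower those of others. Ratios on both sides of 1 are therefore built in, here and for the shares below. A ratio below 1 need not be a fall in level: over all cells Cenpa, Ube2c and Cdk1 were 1.45-fold, 1.39-fold and 1.29-fold higher in CPM.

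In cells with 20 or more UMIs of the set after thinning, 338 control and 836 stimulated cells, 8 members had a larger share in the stimulated library with an interval above 1. These were Aurkb, Birc5, Cenpf, Knstrn, Hmmr, Kif23, Kif2c and Hmgb2, with Aurkb at 1.52 (1.17 to 2.01) and Hmgb2 at 1.29 (1.17 to 1.43). A smaller share with an interval below 1 was seen for Cdk1, Bub1, Pbk, Cdc20, Cdca3, Prc1 and Ect2. Cdk1 was at 0.81 (0.72 to 0.92), Ect2 at 0.64 (0.48 to 0.85) and Bub1, from few UMIs, at 0.48 (0.29 to 0.81). Aurkb and Hmgb2 lay above 1 over all cells, in cells with 5 or more UMIs and in the cells richest in the set. Ect2 and Cdk1 lay below 1 in each of these groups of cells. The groups are nested, so they largely share the same UMIs. Cells with 5 or more, counted without thinning, held 95.1% of control UMIs of the set and 97.2% of stimulated ones. Lying on the same side in each group is therefore partly built in and is no separate check. The order of the shares was otherwise close in both libraries, with a Spearman correlation of 0.98 across the 43 genes, which share their cells and depth.

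**Figure D4:**
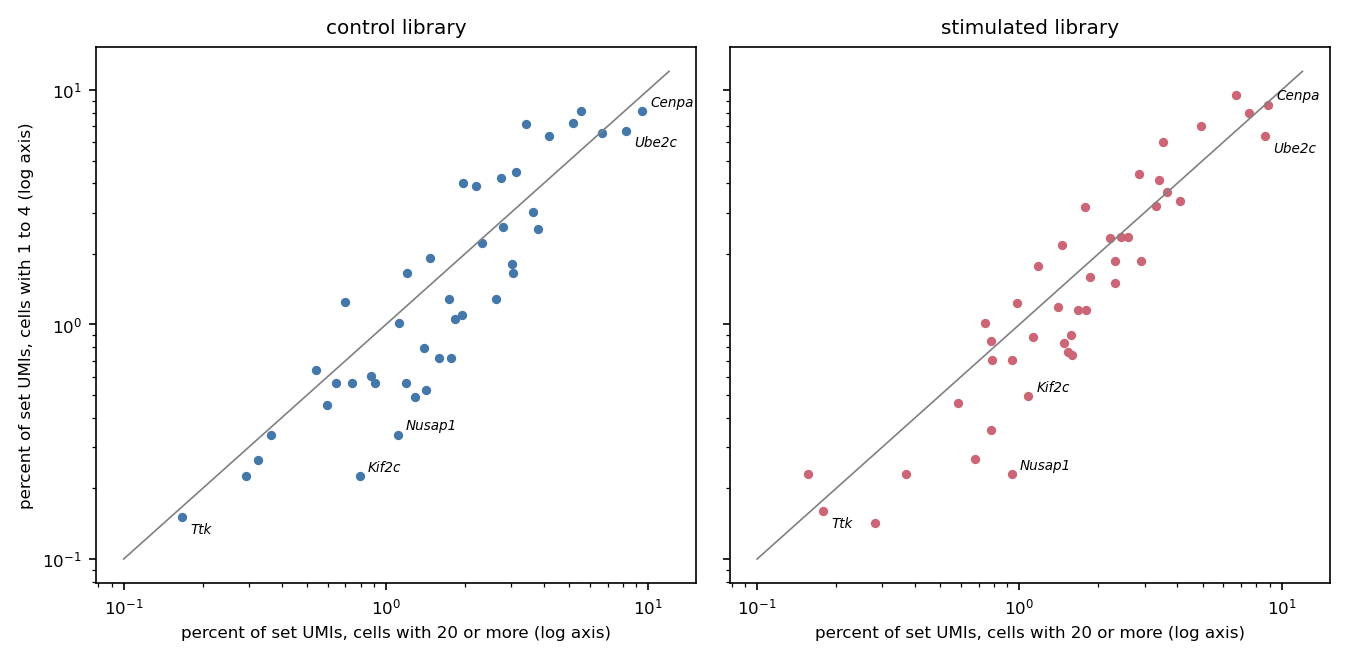
Each member's percent of all UMIs of the set in cells with 1 to 4 of them (vertical, log axis) against cells with 20 or more (horizontal, log axis) after thinning, in each library, with a line of equal shares. Members keep a similar order in both kinds of cell, and Nusap1 (0.339% and 1.11% of control UMIs, 0.230% and 0.934% of stimulated UMIs) and Kif2c lie below the line.

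Cells with few UMIs of the set held the members in an order close to that of the richest cells, with a Spearman correlation across the 43 genes of 0.90 in the control library and 0.92 in the stimulated one. Cdk1 made up 6.37% of the set in control cells with 1 to 4 UMIs and 4.19% in those with 20 or more, and 4.15% and 3.40% in the stimulated library. Nusap1, which binds spindle microtubules, and Kif2c, a kinesin that takes microtubules apart, went the other way in both libraries. Kif2c was at 0.226% and 0.794% in the control and at 0.496% and 1.08% in the stimulated library. The richest cells were chosen for a high sum, which itself lowers correlations between members, and counts of single members are sparse. As a description, across 903 pairs the median Spearman correlation over cells was 0.0091 in the control library and 0.0047 in the stimulated one. The pair Ccnb1 and Cdc20 had values of 0.24 and 0.23, and Cdk1 and Ube2c 0.35 and 0.18. At the other end Cdc20 and Top2a had -0.18 and -0.21, Cdk1 and Cdca3 -0.15 and -0.14, and Cenpa and Top2a -0.12 and -0.13. All of these are weak in counts of this kind.

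S phase genes gave a second view of the same cells. After thinning, cells with 5 or more UMIs both of the set and of 40 S phase genes were 17.5% of the control and 28.7% of the stimulated library, and cells with the set alone 9.64% and 15.5%. Cells with S phase genes alone were 6.65% and 8.23%, and cells with neither 66.2% and 47.6%. The median depth before thinning was 23276 and 17753 UMIs in the cells with both and 20310 and 15147 UMIs in those with neither. Among cells with 20 or more UMIs of the set, Cdk1 took a larger share of the set where S phase genes were present, by 1.51 (1.17 to 1.96) in the control and 1.32 (1.13 to 1.55) in the stimulated library. Cenpa took a smaller share there, by 0.72 (0.62 to 0.83) and 0.84 (0.77 to 0.92). These were the only 2 of the 43 whose interval lay on the same side of 1 in both libraries, and over all 43 the ratios of the libraries had a Spearman correlation of 0.08.

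Cells with 5 or more UMIs of the set differed from the other cells of their library in genes outside the set as well. In the control 7.05% of 8754 genes were 1.5-fold higher in these cells and 2.06% lower, and in the stimulated library 7% of 8647 and 1.19%. Of 3288 non-member genes ranked in both, 144 were higher in both libraries, 11 were lower in both, and 0 went opposite ways. Tk1, the thymidine kinase of S phase, was at 4.03 CPM in other cells and 66.4 CPM in cells of the set in the control, and at 9.81 and 75.7 CPM in the stimulated library. Rrm2, a subunit of ribonucleotide reductase, was 8.82-fold and 5.68-fold higher, and the condensin gene Smc2 8.41-fold and 5.20-fold. Lockd, a long non-coding RNA beside Cdkn1b, was 7.25-fold and 5.99-fold higher, and Stmn1, which binds free tubulin, 6.80-fold and 4.35-fold. Cenpm and Spc24 of the kinetochore, Lig1, Cks2, Smc4, Gmnn and Tmpo completed the 12 with the largest smaller fold.

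Among the genes lower in cells of the set in both libraries, Cemip, a hyaluronan-degrading protein, was at 558 CPM in other cells and 278 CPM in cells of the set in the control, and at 161 and 80.1 CPM in the stimulated library. Meg3, a long non-coding RNA, was at 1391 and 671 CPM in the control and at 1107 and 622 CPM in the stimulated library. Cemip had a fold of 0.50 in each library although its level differed between them, and Meg3 had folds of 0.48 and 0.56. Mxd4, a MYC antagonist, had folds of 0.63 and 0.60, and Gas6, a ligand of the receptor AXL, 0.58 and 0.60. Trp53inp2, Ypel3, Sesn3, Mustn1, Limch1, Prelp and Dmpk made up the other genes lower in both libraries, and the twelfth by rank, Fn1 (fibronectin), had folds of 0.67 and 0.65. Fibroblast markers summed to 8020 CPM in cells of the set and 9553 CPM in other control cells, and to 4366 and 4883 CPM in the stimulated library. Contractile markers summed to 10138 and 10233 CPM in the control and to 3700 and 3264 CPM in the stimulated library. These sums mix genes that went both ways. In the stimulated library Acta2 was at 1172 CPM in cells of the set and 860 CPM in others, and Des at 95.4 and 156 CPM. Among the fibroblast markers Vim went against the sum in the control, at 1395 and 1143 CPM. The median depth was 22757 UMIs in cells of the set and 17317 in others in the control, and 16864 and 12726 in the stimulated library, and the part of depth in these folds was not tested.

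Other genes of the mitotic machinery were compared over all cells by lists that do not overlap with the set. For all lists the share over all 8786 genes compared is 7.74% higher and 12% lower. Of 28 measured other spindle and kinetochore genes 18 were higher and 0 lower, with a median log2 fold of 0.64. Psrc1, a spindle protein, was at 17.8 and 41.7 CPM, 2.34-fold higher (2.21 to 2.48), and Zwint, a kinetochore linker, at 75.5 and 90.2 CPM, 1.19-fold higher (1.16 to 1.23). Kpna2, an importin that carries spindle factors, had a fold of 2.44, but 76.6% of its 3′ windows match the gene model Gm10184, so that value is uncertain. Cenpw, a centromere protein, was at 57.5 and 56.7 CPM, with a fold of 0.99 (0.95 to 1.02). Of 19 condensin, cohesin and chromosome genes 5 were higher and 0 lower, with a median of 0.40. H2afz, a histone variant, was at 694 and 948 CPM, 1.37-fold higher (1.35 to 1.38), and Pttg1, which encodes securin, at 26.9 and 22.9 CPM, a fold of 0.85 (0.81 to 0.90). The value of Hmgn2, 2.17-fold, is uncertain because 67.8% of its windows match other gene models.

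Regulators of mitotic entry and exit, the subunits of the APC/C among them, held 5 of 27 higher and 0 lower, with a median log2 fold of 0.10. Ube2s, which extends ubiquitin chains for the APC/C, was at 489 and 405 CPM, a fold of 0.83 (0.82 to 0.84), and Trip13, which resets the checkpoint, at 5.70 and 11.1 CPM, 1.95-fold higher (1.76 to 2.17). Ensa, an inhibitor of the phosphatase that opposes CDK1, had the smallest fold, 0.75 (0.71 to 0.80). Of 13 transcription factors of G2 and M genes 1 was higher (7.69%), 1 was lower and the median was 0.06. These counts lie near the shares over all genes, 7.74% higher and 12% lower. Foxm1, an activator of these genes, was at 10.9 and 17.7 CPM, 1.63-fold higher (1.51 to 1.76), and Rb1, the retinoblastoma protein, at 9.20 and 4.97 CPM, a fold of 0.54 (0.49 to 0.60). Rbbp4, a histone-binding subunit of the complex that represses them, was at 38.1 and 39.3 CPM.

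Tubulins, taken with Stmn1, held 1 of 12 higher (8.33%, against 7.74% of all genes) and 2 lower (against 12% of all genes). Their median was -0.05, a sign that the shift of all genes under TMM scaling would turn. Tubb5 was at 1009.8 and 1181 CPM, 1.17-fold higher (1.16 to 1.18), Stmn1 was 1.55-fold higher (1.51 to 1.58), and Tubb2b was at 80.9 and 43.8 CPM, a fold of 0.54 (0.52 to 0.56). Tuba1a, Tuba1b, Tuba1c and Tubb2a share 36.4%, 45.5%, 31.8% and 36.4% of their 3′ windows with other tubulins, so their values within this count are uncertain. S phase genes held 8 of 32 higher and 0 lower with a median of 0.43, from Ccne2, cyclin E2, at 0.88 (0.79 to 0.99) to Clspn, of the replication checkpoint, at 1.80 (1.65 to 1.97), with Dut at 1.17. Within cells with 5 or more UMIs of the set the medians were 0.21 for the other spindle genes, 0.08 for the chromosome genes, 0.08 for the entry and exit regulators, -0.02 for the transcription factors, -0.19 for the tubulins and 0.01 for the S phase genes, against -0.08 over all genes.

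**Figure D5:**
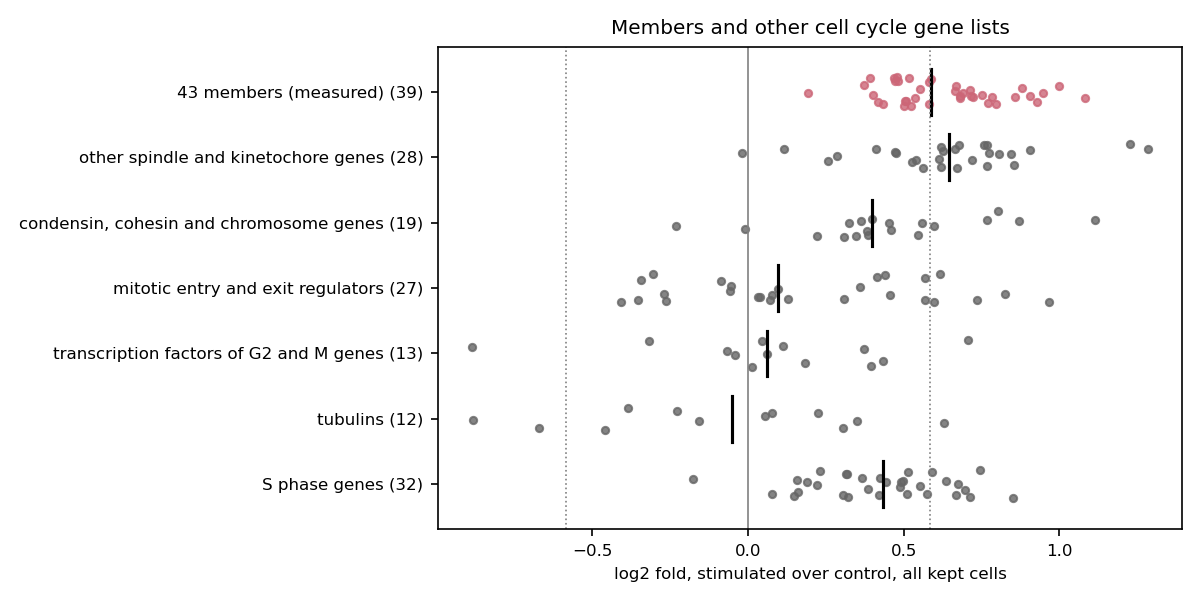
Log2 fold of stimulated over control over all kept cells for the 39 measured members (red) and the measured genes of 6 other lists (grey), with a bar at each median and dotted lines at 1.5-fold either way. Members and other spindle genes have medians of 0.59 and 0.64, S phase and chromosome genes 0.43 and 0.40, and the other 3 lists lie between -0.05 and 0.10.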

How the data were processed

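The authors deposited raw UMI counts per gene and cell barcode for 2 libraries, 1 control and 1 stimulated, with no normalization. Cell Ranger 3.0.2 wrote the count matrices, per the file headers, whereas Cell Ranger 1.3.1 is listed with Seurat 3.0.0 per the submitters' processing notes. Neither build nor annotation is given in the sources used here. Groups were taken from the sample titles. The 43 members and all gene lists were chosen with earlier results of these data known.

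A barcode was kept if it held 500 genes or more and no more than 20% mitochondrial UMIs, leaving out 313 control and 230 stimulated barcodes and keeping 88573140 and 117193148 UMIs. No doublet caller was run, so doublets remain. Counts were summed over cells and scaled to CPM in Python 3.11.15 with scipy 1.17.1. Folds are stimulated over control with exact conditional-Poisson 95% intervals, and a gene whose mean reached 5 CPM counted as higher or lower at 1.5-fold. Shares of cells were taken after thinning each cell to 5000 UMIs. The fold intervals were tried on simulated Poisson counts, and the thinning on simulated cells. Those Poisson counts were drawn per gene for a whole library, without the grouping of UMIs in cells, so they do not check that part. Tags come from 3′ ends, so levels of different genes are not compared per length.

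Members were described by role. Full values are given for the 3 most abundant of each role and for the 5 largest and 5 smallest folds in either set of cells. For each pathway list the most abundant gene and those at either end of the folds are named. Genes outside the set, within a library, were ranked by the smaller of the folds among those with a mean of at least 25 CPM in both. Near copies were sought with minimap2 2.31 in the last 400 bases of GENCODE transcripts, in windows of 90 bases with at most 2 mismatches. Only 4 members shared a window with another gene: Cenpf 1.56%, Ndc80 1.82%, Ube2c 4.55% and Ckap2 6.06% of windows. Alternatives covered scaling, filters, thresholds, thinning depth and left-out cells.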

Additional observations from a re-analysis of the deposited data

How the results depend on the processing

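No paired analysis was possible because each group is 1 library and the labels carry no replicate numbers. Over all cells, 9 of 22 members were higher when a mean of at least 20 CPM was required, against 20 of 39 at 5 CPM. No setting made a member lower over all cells. Beyond the main settings and TMM scaling, no share of all genes was taken beside counts of members, here or in the cells below. Such counts are therefore a description only. The ratio of shares of cells was 1.73 with a threshold of 10 UMIs, 1.5 with 20 UMIs and 1.74 after thinning to 3000 UMIs, and the cause was not tested. In cells with 5 or more UMIs of the set, the count of members higher went from 1 to 0 when the UMIs were counted after thinning, with thresholds of 10 or 20 UMIs, with cells chosen on the other members, and with 20 UMIs after thinning, where 2 members were lower. The median log2 fold there was -0.073 with 5 UMIs after thinning, -0.0041 with a threshold of 10, -0.011 with 20 and -0.17 with 20 after thinning, the last chosen after seeing the data, so its sign depends on how the cells are chosen. With 20 or more against under 5 UMIs after thinning, also chosen after seeing the data, 245 genes outside the set were higher in both libraries and 39 lower. Of the genes named above as lower, Limch1 in the control, at 0.83 (0.73 to 0.93), did not reach 1.5-fold lower there. Neither did Sesn3 in the stimulated library, at 0.68 (0.62 to 0.75). With 1 library per group, differences between cultures cannot be told apart from those of treatment.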
